A study of Mus musculus with 24 samples.

Results

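The comparison described here is the effect of ABT-263 on the lung of mice breathing normal air. It sets the 6 lung libraries of the normoxia group given ABT-263 against the 6 of the normoxia group given vehicle, 12 of the 24 libraries in the study, over every gene that passed a low-count filter (16935 of the 54532 genes in the table). Gene expression was measured by RNA-seq, with whole lung taken from C57BL6/j mice, young males, after 2 days of treatment. The drug dose was 50 mg/kg/day, and normoxia with vehicle served as the study's control. The other 12 libraries combine hypoxia with the same 2 treatments and are used here only beside the normoxia values. The labels number no animals, so the p-values measure the spread between libraries, which may be partly technical. The hour at which lungs were collected is not given in the sources used here.

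ABT-263, also called navitoclax, occupies the groove with which the survival proteins BCL-2, BCL-W and BCL-XL hold back cell death proteins, and it is used as a senolytic, a drug meant to kill senescent cells. Circulating platelets depend on BCL-XL and mature lymphocytes largely on BCL-2, so a fall in blood platelets is the best known effect of the drug. The lung is rich in blood, holds megakaryocytes, and, like other organs, runs a circadian clock in which transcription factors switch each other on and off over the day.

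At 2 days of treatment 7 of the 16935 genes passed an adjusted p of 0.05 (edgeR quasi-likelihood F test, Benjamini-Hochberg over all genes tested), which is 0.0413% of them. Of these, 6 rose (0.0354%) and 1 fell (0.0059%). Gp1bb and Gp9 encode subunits of the receptor by which platelets bind von Willebrand factor, and Mfsd2b encodes the exporter of sphingosine-1-phosphate of red cells and platelets. The other 4 are clock genes: Dbp, Tef and Nr1d1 rose, and Arntl, which encodes the clock activator BMAL1, fell. The median log2 fold change over all genes tested was 0.0059. At an unadjusted p of 0.05, 1154 genes (6.81%) differed, 489 (2.89%) higher under ABT-263 and 665 (3.93%) lower, and 51.7% of all genes had a positive log2 fold change. Every library of the drug group lay above every vehicle library for 36 genes (0.213%) and below for 47 (0.278%).

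The number of calls depended on the fit. When only the 12 normoxia libraries were fitted, no gene passed, and the smallest adjusted p was 0.0594, reached by all of these genes except Dbp (0.215) and also, among the genes named below, by Cipc, Pf4, Scd1 and Treml1, while 1623 genes had an unadjusted p under 0.05. DESeq2 on all 24 libraries called 30 genes, 19 higher and 11 lower, and all 7 genes were among them. Of the genes described below, it added the platelet genes Clec1b, Gp6, Itga2b, Mpig6b, Pf4 and Treml1, the clock genes Cipc, Npas2 and Nr1d2, and Herpud1 and Tex11. It also added Bank1, Col12a1, Flrt3, Mmp3, Myct1, Scd1, Spon2 and Spry1. Adjusted p-values and calls given from here on are edgeR's unless another tool is named. With 1 library left out at a time, Gp1bb was called in 24 of 24 fits, Gp9 in 22, Dbp in 21, Arntl in 20, Tef and Mfsd2b in 12 each, and Nr1d1 in 7.

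Defining lung genes were abundant in every library of the comparison: Sftpc of alveolar type 2 cells ran from 19860 to 28130 CPM (counts scaled to a library total of 1e+06), and Scgb1a1 of club cells from 64140 to 125900 CPM. Library totals lay between 12676648 and 17095152 expected counts. They averaged 15496800 ± 1515300 with vehicle and 14756100 ± 1464130 with the drug (SD, n = 6 each; exact two-sided permutation p = 0.390, adjusted over 4 library properties 0.446). Haemoglobin transcripts took 0.385% ± 0.0800 of the counts with vehicle and 0.600% ± 0.214 with the drug, and mitochondrial transcripts 4.03% ± 0.608 and 4.88% ± 0.908 (SD, n = 6 each). Neither difference passed (exact permutation p = 0.0519 and 0.0844, both 0.169 after adjustment). One library stood apart in its contents: replicate 5 of the drug group held far more transcripts of natural killer cells and of the interferon response than the others, as given below. The 4 normoxia libraries least like the rest were vehicle replicates 1 and 2 and drug replicates 4 and 5, and leaving all 4 out left no gene called, with 708 genes at an unadjusted p under 0.05.

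**Figure D1:**
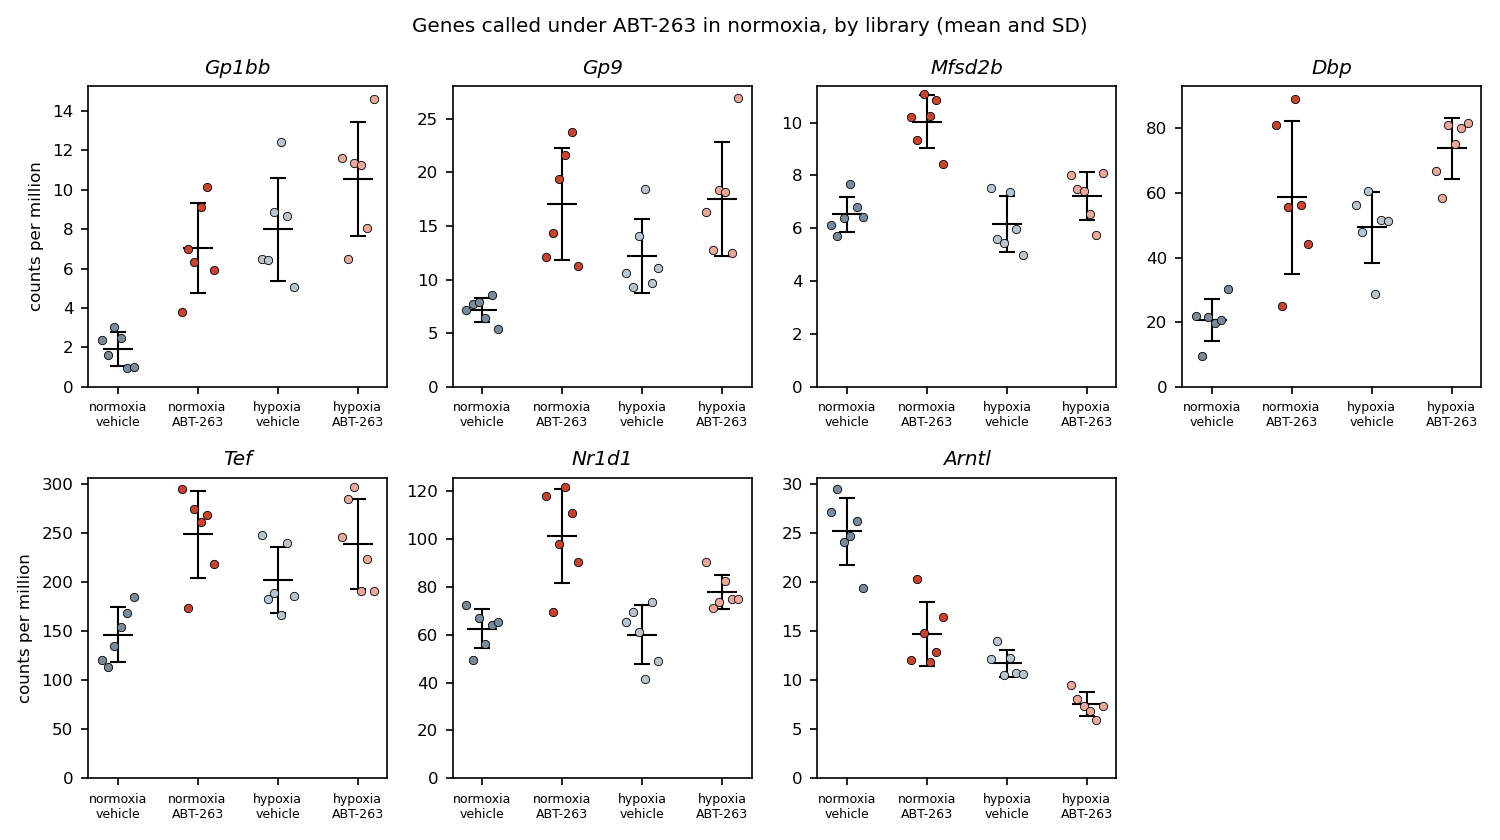
TMM-scaled CPM (vertical axis) of the 7 genes called in normoxia, 1 point per library, with the mean and SD of the 6 libraries of each group. Gp1bb lies between 0.972 and 3.03 CPM in the normoxia vehicle libraries and between 3.78 and 10.1 under ABT-263, while the hypoxia vehicle group averages 7.98 CPM.

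Gp1bb had the largest fold change of the 7 called genes. Gp1bb (ENSMUSG00000050761, chr16:18620317-18622403, minus strand, GRCm38) encodes the beta chain of glycoprotein Ib. With vehicle it ran from 0.972 to 3.03 CPM with a median of 2.00, and under ABT-263 from 3.78 to 10.1 CPM with a median of 6.65. All 6 drug libraries lay above all 6 vehicle libraries. The log2 fold change was 1.87 (SE 0.28, 3.65-fold, adjusted p = 0.0109). The gene lies on the same strand as Sept5 and Gm49601, so some of its counts could belong to those genes.

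Gp9 (ENSMUSG00000030054, chr6:87778072-87779768, plus strand) encodes glycoprotein IX of the same receptor complex and overlaps no other annotated gene. It ran from 5.36 to 8.53 CPM with vehicle (median 7.45) and from 11.2 to 23.8 CPM with the drug (median 16.9), again without overlap. It rose 2.38-fold (log2 fold change 1.25, SE 0.21, adjusted p = 0.0128). It lost its call without vehicle replicate 4 (adjusted p 0.0512) and without drug replicate 4 (0.0568).

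A list of 38 platelet and megakaryocyte genes, 37 of which could be tested, followed the same direction by counts. At an unadjusted p under 0.05, 21 were higher and 1 was lower, beside 2.89% higher and 3.93% lower over all genes. For 8 members, all higher, the groups did not overlap, beside 0.213% of all genes with the drug higher. The summed level of the 38 listed genes ran from 962.3 to 1147 CPM with vehicle and from 989.2 to 1356 with the drug. Its medians were 1005 and 1064 CPM, and the summed ranges overlapped. The list's median log2 fold change was 0.46, beside 0.0059 over all genes. The median was 0.28 without drug replicate 5, with 15 members higher, and 0.25 without the 4 libraries that stood apart, with 11 members higher. Gfi1b, a transcription factor of megakaryocytes and red cells, was below the filter.

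Among 10 adhesion receptors and related surface proteins, all 10 were higher at an unadjusted p under 0.05, with a median log2 fold change of 0.82, and only Gp1bb and Gp9 were called. Itga2b, the integrin chain that makes the fibrinogen receptor with Itgb3, ran from 14.1 to 21.4 CPM with vehicle and from 22.7 to 54.9 with the drug (log2 fold change 0.96, SE 0.21, adjusted p = 0.110). Treml1, a receptor stored in platelet alpha granules, ran from 0.581 to 1.496 CPM and from 2.06 to 3.33 (1.21, SE 0.27, adjusted p = 0.126). Gp6, the collagen receptor, ran from 2.21 to 2.92 CPM and from 2.96 to 6.52 (0.83, SE 0.20, adjusted p = 0.212). These 3 genes had no overlap between groups, and none passed the adjusted threshold.

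The remaining subunits of the von Willebrand factor receptor had smaller differences, with overlap between groups. Gp1ba, its ligand-binding chain, had a log2 fold change of 0.73 (SE 0.21) and Gp5 of 0.82 (SE 0.23), with adjusted p of 0.311 and 0.297. Clec1b, the platelet receptor for podoplanin, ran from 13.4 to 19.1 CPM with vehicle and from 17.8 to 27.4 with the drug (0.48, SE 0.11, adjusted p = 0.144). Mpig6b and Ly6g6f, platelet surface proteins both encoded in the major histocompatibility region, were not on the list and were among the 10 uncalled higher genes with the smallest p. Both groups were separate for each, with log2 fold changes of 0.80 (SE 0.19, adjusted p = 0.171) and 1.25 (SE 0.29, adjusted p = 0.171).

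Receptors for soluble agonists were mixed. The ADP receptor P2ry1 had separate groups (log2 fold change 0.46, SE 0.16), and the ATP-gated channel P2rx1 (0.69, SE 0.19) and the protease-activated receptor F2rl2 (0.88, SE 0.28) had positive values with overlapping groups. Tbxa2r, the thromboxane receptor, which vascular smooth muscle also uses, ran from 6.73 to 16.04 CPM with vehicle and from 5.77 to 8.99 with the drug (-0.58, SE 0.19). None of these 4 passed, with adjusted p from 0.264 to 0.463.

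Granule contents were mixed. The platelet chemokines Pf4 (18.2 to 25.8 CPM with vehicle, 28.6 to 41.6 with the drug) and Ppbp (19.9 to 25.9 and 26.6 to 52.7) had no overlap between groups. Their log2 fold changes were 0.67 (SE 0.14, adjusted p = 0.104) and 0.62 (SE 0.18, adjusted p = 0.311). Vwf, which endothelium makes as well, ran from 192.9 to 321.9 CPM with vehicle and from 218.0 to 325.6 with the drug, a log2 fold change of -0.01 (SE 0.14) whose sign turned with RLE scaling, DESeq2 and limma-voom. Among enzymes, the platelet lipoxygenase Alox12 had a log2 fold change of 0.69 (SE 0.21, adjusted p = 0.373). In bulk lung, more platelets or megakaryocytes and more RNA in each of them cannot be told apart, and the same holds for every cell type below.

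**Figure D2:**
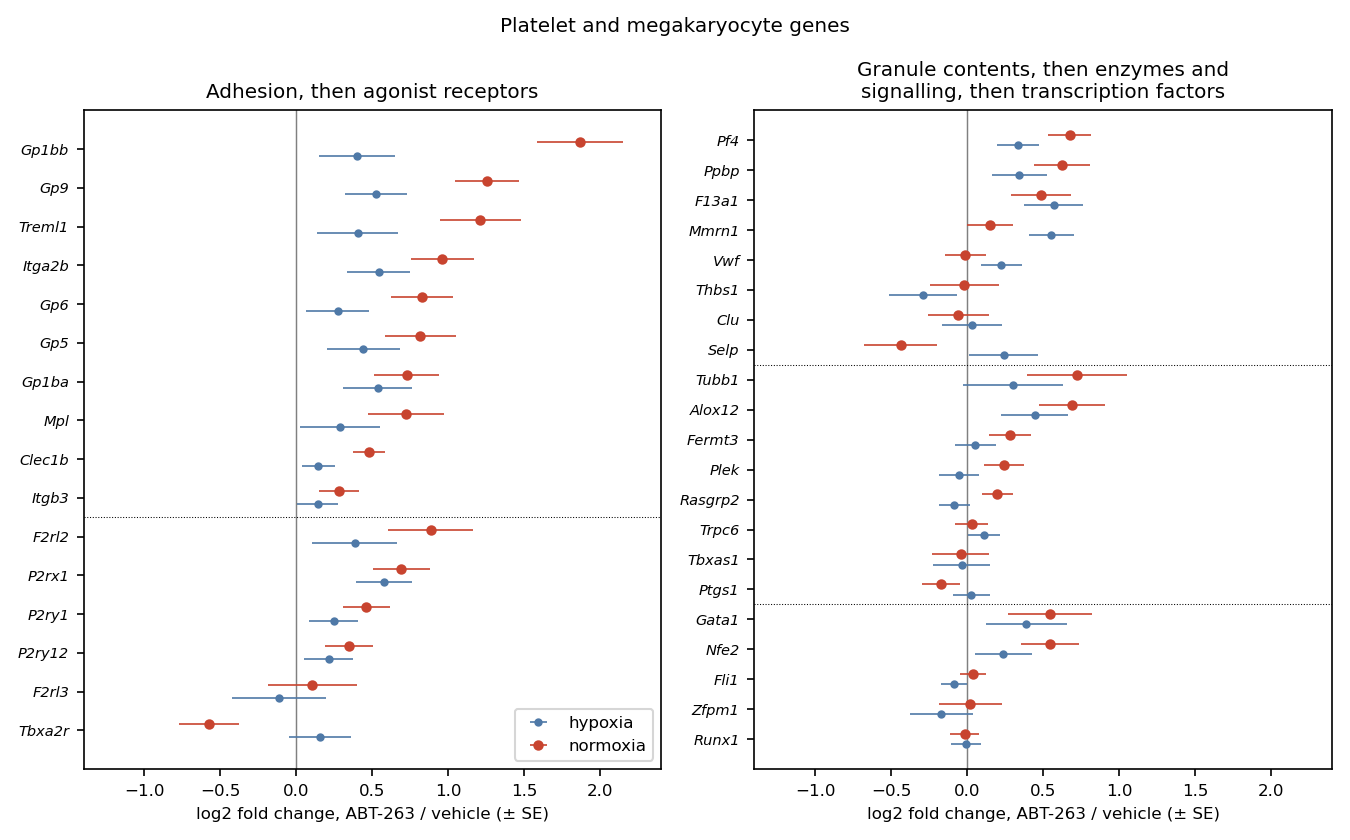
Log2 fold change of ABT-263 over vehicle (horizontal axis, with SE) for the 37 tested platelet and megakaryocyte genes, grouped by role, in normoxia (red) and hypoxia (blue). The 10 adhesion receptors all lie above 0 in normoxia, from 0.28 to 1.87, while Vwf sits at -0.01.

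Mfsd2b was the called gene with a red cell role. Mfsd2b (ENSMUSG00000037336, chr12:4862440-4874359, minus strand) ran from 5.71 to 7.67 CPM with vehicle and from 8.41 to 11.1 with the drug, without overlap. It rose 1.54-fold (log2 fold change 0.62, SE 0.12, adjusted p = 0.0411). Of 19 tested erythroid genes, Mfsd2b among them, 9 were higher at an unadjusted p under 0.05 and 0 lower, with a median log2 fold change of 0.56. Over all genes, 2.89% were higher and 3.93% lower at that threshold, and the median was 0.0059. Mfsd2b was the only member called and the only member with separate groups. The shares over all genes were 0.0354% called higher and 0.213% separate with the drug higher. Hbb-bs, a beta-globin gene whose reads may be divided with its near copy Hbb-bt, ran from 1627 to 3108 CPM with vehicle and from 1671 to 5069 with the drug (0.69, SE 0.25, adjusted p = 0.528). Its groups overlapped, and drug replicate 5 lay at the bottom of its group. The summed erythroid list spanned 2927 to 5256 CPM with vehicle and 2925 to 8178 with the drug. What red cell content contributed to the platelet or Mfsd2b values was not tested.

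The clock genes formed the other called group. In the mammalian clock BMAL1 pairs with CLOCK or NPAS2 and turns on the Per and Cry genes, whose proteins shut BMAL1 off, through a DNA motif called the E-box. The receptors encoded by Nr1d1 and Nr1d2 (REV-ERBs) repress, and RORs activate, genes such as Arntl and Nfil3 through the RORE motif. The factors DBP, TEF and HLF activate, and NFIL3 represses, genes with a D-box. To show these elements beside the values, promoters from RefSeq (GRCm38.p6, 250 bases before to 50 after each start) were searched on both strands for CACGTG (E-box), TAGGTCA (RORE) and TTATGTAA or TTACGTAA (D-box). Of the 19 clock genes 16 had a promoter in that table. The motifs were found in 7.15%, 2.61% and 1.06% of all 32851 promoters, and none overlapped another in the clock promoters. The E-box was found in those of Bhlhe41, Ciart, Cry1, Per1 and Tef, the RORE in those of Arntl and Nfil3, and the D-box in that of Per3. For Arntl and Per1, another promoter of the same gene held none of these motifs. None was found in the searched promoters of the called genes Dbp and Nr1d1, or of Clock, Cry2, Hlf, Npas2, Nr1d2 and Rora. The 6 promoters below were picked to show each motif with a called or otherwise differing gene, the E-box with genes on both sides (Tef and Per1, Cry1), with the motif in capitals; those of Bhlhe41 and Ciart are not shown. They are Arntl (chr7:113207261-113207560, plus strand), Nfil3 (chr13:52980990-52981289, minus strand), Tef (chr15:81802423-81802722, plus strand), Per1 (chr11:69098699-69098998, plus strand), Cry1 (chr10:85185005-85185304, minus strand) and Per3 (chr4:151044616-151044915, minus strand), each written 5′ to 3′ on the gene's strand.
Arntl: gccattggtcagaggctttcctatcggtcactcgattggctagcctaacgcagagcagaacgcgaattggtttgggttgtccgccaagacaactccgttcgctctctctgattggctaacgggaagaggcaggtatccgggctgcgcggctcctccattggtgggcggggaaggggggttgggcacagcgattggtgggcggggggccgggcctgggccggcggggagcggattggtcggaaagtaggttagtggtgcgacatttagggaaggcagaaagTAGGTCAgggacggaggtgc
Nfil3: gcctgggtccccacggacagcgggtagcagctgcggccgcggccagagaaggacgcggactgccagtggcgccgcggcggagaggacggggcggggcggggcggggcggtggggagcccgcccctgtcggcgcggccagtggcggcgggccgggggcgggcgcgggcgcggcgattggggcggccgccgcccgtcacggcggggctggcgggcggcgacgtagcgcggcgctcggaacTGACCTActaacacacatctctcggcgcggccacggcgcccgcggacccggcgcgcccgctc
Tef: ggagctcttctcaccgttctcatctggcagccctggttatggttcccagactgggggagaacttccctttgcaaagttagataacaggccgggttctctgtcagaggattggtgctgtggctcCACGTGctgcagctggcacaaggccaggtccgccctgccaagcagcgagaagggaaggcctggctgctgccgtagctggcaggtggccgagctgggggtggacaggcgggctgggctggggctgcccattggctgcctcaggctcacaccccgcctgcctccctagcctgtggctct
Per1: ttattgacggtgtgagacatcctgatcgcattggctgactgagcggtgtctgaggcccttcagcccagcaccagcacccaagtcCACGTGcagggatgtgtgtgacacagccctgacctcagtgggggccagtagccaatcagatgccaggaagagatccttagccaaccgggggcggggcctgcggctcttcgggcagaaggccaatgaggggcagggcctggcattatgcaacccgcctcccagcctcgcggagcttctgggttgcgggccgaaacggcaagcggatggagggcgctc
Cry1: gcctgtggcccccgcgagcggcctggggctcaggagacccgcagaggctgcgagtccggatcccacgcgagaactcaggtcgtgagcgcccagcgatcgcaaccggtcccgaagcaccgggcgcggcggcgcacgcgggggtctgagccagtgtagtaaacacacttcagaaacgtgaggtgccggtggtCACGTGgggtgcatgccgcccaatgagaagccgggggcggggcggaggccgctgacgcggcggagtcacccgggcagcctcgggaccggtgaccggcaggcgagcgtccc
Per3: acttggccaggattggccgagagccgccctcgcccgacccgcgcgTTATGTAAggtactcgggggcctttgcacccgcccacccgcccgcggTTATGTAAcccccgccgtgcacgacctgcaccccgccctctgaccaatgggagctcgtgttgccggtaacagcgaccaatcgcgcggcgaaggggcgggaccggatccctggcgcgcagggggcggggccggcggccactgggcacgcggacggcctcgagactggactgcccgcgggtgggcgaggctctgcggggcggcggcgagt

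All 3 activators were lower under the drug at an unadjusted p under 0.05. Arntl (ENSMUSG00000055116, chr7:113207465-113314126, plus strand) ran from 19.4 to 29.5 CPM with vehicle (median 25.5) and from 11.8 to 20.3 with the drug (median 13.8). Only drug replicate 2, at 20.3 CPM, reached into the vehicle range, whose lowest library, replicate 6, had 19.4 CPM. Arntl fell by 0.77 on the log2 scale (SE 0.13, adjusted p = 0.0128) and lost its call without vehicle replicate 2 (adjusted p 0.0526), vehicle replicate 4 (0.0512), drug replicate 1 (0.0524) or drug replicate 4 (0.0568). Npas2 ran from 7.88 to 19.5 CPM with vehicle and from 4.38 to 10.8 with the drug (-1.04, SE 0.24, adjusted p = 0.144). Clock itself lay at 62.1 to 65.5 CPM and 52.7 to 65.0 CPM (-0.18, SE 0.09, adjusted p = 0.715).

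Among the PAR-bZIP factors, Dbp (ENSMUSG00000059824, chr7:45705088-45710203, plus strand) ran from 9.57 to 30.3 CPM with vehicle (median 21.1) and from 25.1 to 89.1 with the drug (median 56.0). The groups overlapped through drug replicate 2, the lowest of its group, and vehicle replicate 6, the highest of its group. Dbp rose 2.84-fold (log2 fold change 1.505, SE 0.25, adjusted p = 0.0128). Its call was lost without the low-count filter (adjusted p 0.0546) and without vehicle replicate 4 (0.0512), drug replicate 1 (0.0524) or drug replicate 4 (0.0568). Tef (ENSMUSG00000022389, chr15:81802421-81826863, plus strand), whose promoter shown above holds an E-box, ran from 113.8 to 184.8 CPM and from 173.2 to 294.0 (median 144 and 265). Tef rose 1.70-fold (0.77, SE 0.14, adjusted p = 0.0411). Hlf had a log2 fold change of 0.37 (SE 0.23), and the opposing repressor Nfil3, from 9.62 to 13.7 CPM with vehicle and 5.47 to 9.76 with the drug, one of -0.52 (SE 0.16). Neither passed, with adjusted p of 0.817 and 0.366.

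The nuclear receptors divided by type. Nr1d1 (ENSMUSG00000020889, chr11:98767932-98775333, minus strand) ran from 49.6 to 72.4 CPM with vehicle (median 64.7) and from 69.6 to 122 with the drug (median 104.5), with overlap only through drug replicate 2. It rose 1.62-fold (log2 fold change 0.70, SE 0.13, adjusted p = 0.0411), and was not called by limma-voom (adjusted p 0.0703). Its relative Nr1d2 had no overlap, at 46.9 to 89.2 CPM and 91.1 to 145 CPM, but did not pass (0.72, SE 0.15, adjusted p = 0.0883). The activator Rora had a log2 fold change of -0.01 (SE 0.09), whose sign turned with RLE scaling and DESeq2. Dbp, Tef, Nr1d1 and Arntl each overlap a gene on the opposite strand (Sphk2, Gm17597, Thra and Gm45355), and the strand setting of the counting is not given in the sources used here, so reads of those partners cannot be told apart.

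The repressors of the loop were mostly higher without passing. Per1 ranged widely with vehicle, from 12.2 CPM in replicate 1 to 87.9 in replicate 5, and from 68.0 to 124 with the drug (1.17, SE 0.37, adjusted p = 0.413). Per2 had a log2 fold change of 0.95 (SE 0.26), Per3 of 0.88 (SE 0.26) and Cry2 of 0.39 (SE 0.12), while Cry1 had one of -0.33 (SE 0.13). Ciart (0.48, SE 0.26), Bhlhe40 (0.25, SE 0.19) and Bhlhe41 (0.41, SE 0.15) were on the same side as the Per genes. Cipc, an inhibitor of CLOCK that was not on the list, lay between 33.1 and 40.2 CPM with vehicle and between 44.2 and 51.4 with the drug, without overlap (0.38, SE 0.09, adjusted p = 0.163).

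Over all 19 clock genes, 9 were higher and 5 lower at an unadjusted p under 0.05, of which 3 and 1 were called, and only Nr1d2 had separate groups, with the drug higher. Over all genes the shares were 2.89% and 3.93% at that threshold, 0.0354% and 0.0059% called, and 0.213% separate with the drug higher. Without the 4 libraries that stood apart, 7 were higher and 3 lower at that threshold. Drug replicate 2 was the drug library nearest to the vehicle group for Dbp, Tef, Nr1d1, Nr1d2, Arntl and Npas2, and without it 13 genes were called over the whole table, Npas2 and Nr1d2 among them. Clock genes also differed among the vehicle libraries. In vehicle replicates 1 to 6 in turn, Per1 stood at 12.15, 15.94, 28.65, 42.95, 87.88 and 56.92 CPM. Dbp, Tef, Per2 and Per3 were lowest in vehicle replicate 1 or 2 and highest in 6. Arntl and Npas2 were highest in 2 and lowest in 6, while Nr1d1 and Hlf were lowest in 2 and highest in 1. Whether the hour of collection moved with treatment or along the libraries was not tested. The glucocorticoid-induced gene Tsc22d3 ran from 103.3 to 295.5 CPM with vehicle and from 206.2 to 588.0 with the drug (0.86, SE 0.27, adjusted p = 0.402). Its log2 fold change was 0.175 without the 4 libraries that stood apart. In all, 3 of 11 glucocorticoid-responsive genes were higher at an unadjusted p under 0.05 and 0 lower.

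**Figure D3:**
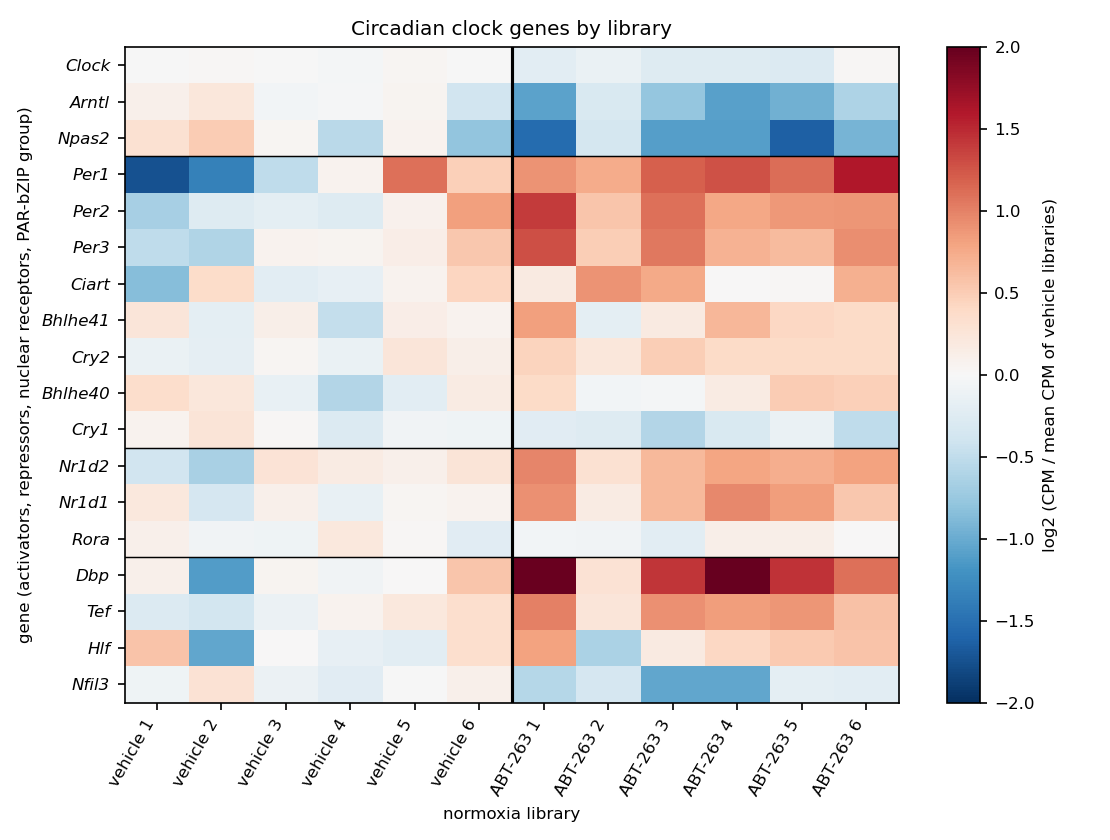
Level of 18 clock genes (rows, grouped by role) in each normoxia library (columns), as log2 of CPM over the mean of the 6 vehicle libraries, from blue (lower) to red (higher). Arntl and Npas2 are blue and Dbp, Tef, Nr1d1 and the Per genes red across most ABT-263 columns, with replicate 2 the palest for Dbp and Nr1d1.

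Genes of lipid synthesis were mostly lower under the drug, with none called by edgeR. Sterols are made by enzymes whose genes are switched on together by SREBP-2, encoded by Srebf2, when cell cholesterol is low. Of 24 tested cholesterol genes, 23 had a negative log2 fold change, beside 48.3% of all genes. At an unadjusted p under 0.05, 11 were lower and 0 higher, with a median log2 fold change of -0.25. Over all genes, 3.93% were lower and 2.89% higher at that threshold, and the median was 0.0059. The synthase Hmgcs1 ran from 88.8 to 121 CPM with vehicle and from 74.5 to 82.5 with the drug (-0.40, SE 0.10, adjusted p = 0.231). Srebf2 itself ran from 122 to 143 CPM and from 95.1 to 119 (-0.26, SE 0.10, adjusted p = 0.584). Both genes had no overlap between groups, with the drug lower. That held for 3 of the 24 genes, beside 0.278% of all genes. The sterol sensor Insig1 (-0.43, SE 0.11), the sterol carrier Stard4 (-0.41, SE 0.11) and the enzyme Hsd17b7 (-0.42, SE 0.11) had similar values with overlapping groups and an adjusted p of 0.233 each.

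Fatty acid synthesis genes had the same direction. Of 17, 16 were negative, 9 were lower at an unadjusted p under 0.05 and 0 higher, and the median log2 fold change was -0.26. Over all genes, 48.3% were negative, and 3.93% were lower and 2.89% higher at that threshold. For 2 of the 17 the groups lay apart with the drug lower, beside 0.278% of all genes. Scd1, the desaturase that makes oleate from stearate and is abundant in alveolar type 2 cells, ran from 1280 to 2314 CPM with vehicle and from 1044 to 1259 with the drug. All 6 drug libraries lay below all 6 vehicle libraries. Its log2 fold change was -0.73 (SE 0.15, adjusted p = 0.0883), and it was called when the low-count filter was dropped (adjusted p 0.0451), by DESeq2 (0.00303), and without vehicle replicate 6. Fasn, the fatty acid synthase, lay between 158.8 and 181.9 CPM with vehicle and between 111.2 and 147.8 with the drug, also separate (-0.35, SE 0.09, adjusted p = 0.233). The marker list of alveolar type 2 cells, which use these genes for surfactant, had a median log2 fold change of -0.19 with 11 of 12 members negative, and its summed level ran from 30510 to 40190 CPM with vehicle and from 28480 to 38530 with the drug. Its part in the lipid values was not tested. Adipose markers summed to 69.8 to 396.6 CPM with vehicle and 79.9 to 339.4 with the drug, with medians of 208.4 and 124.1. Their list had a median log2 fold change of -0.85 in normoxia, with 6 of 8 members negative and 0 at an unadjusted p under 0.05, and of 1.19 in hypoxia, with 7 of 8 positive. Their part in the lipid values was not tested either.

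B cell transcripts were lower under ABT-263 without a call by edgeR, while DESeq2 called Bank1 (adjusted p 0.0474). All 22 tested B cell genes had a negative log2 fold change, 13 were lower at an unadjusted p under 0.05 and 0 higher, and the median was -0.47. Over all genes, 48.3% had a negative value, 3.93% were lower and 2.89% higher at that threshold, and the median was 0.0059. Cd79a, which carries the signal of the B cell receptor, ran from 24 to 42 CPM with vehicle and from 17.2 to 22.5 with the drug (-0.74, SE 0.18, adjusted p = 0.216). Fcmr, the receptor for IgM, ran from 11.4 to 21.1 CPM and from 6.79 to 10.2 (-0.84, SE 0.21, adjusted p = 0.212). These 2 genes had separate groups, beside 0.278% of all genes with the drug lower. The scaffold protein gene Bank1 had a log2 fold change of -0.76 (SE 0.19), the follicle-homing receptor Cxcr5 of -0.63 (SE 0.18), and the heavy-chain genes Ighd of -0.64 (SE 0.20) and Ighm of -0.42 (SE 0.16), with overlapping groups and adjusted p from 0.212 to 0.596. The list's summed level ran from 560.3 to 899.1 CPM with vehicle and from 468.3 to 630.1 with the drug. Without the 4 libraries that stood apart the median was -0.27 with 4 members lower at that threshold.

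T cell markers had a median log2 fold change of -0.16, and 2 of 18 were lower at an unadjusted p under 0.05. Over all genes, 3.93% were lower and 2.89% higher at that threshold. The natural killer list turned on 1 library. Its 12 genes summed to 101.7 to 137.0 CPM with vehicle and to 64.2 to 105.6 CPM in 5 drug libraries, but to 690.8 CPM in drug replicate 5. With that library all 12 genes had a positive log2 fold change (median 0.43) and 1 was higher at an unadjusted p under 0.05. Without it all 12 were negative (median -0.62) and 8 were lower at that threshold. In that fit 1215 of 17064 genes had an unadjusted p under 0.05 in either direction. Gzma, a granzyme of killer lymphocytes, ran from 41.0 to 57.0 CPM with vehicle, from 22.5 to 42.7 CPM in 5 drug libraries, and was 357.7 CPM in replicate 5. The pore protein gene Prf1, picked after its values were seen, ran from 4.0 to 6.99 CPM with vehicle and from 1.78 to 3.26 in the same 5 drug libraries, and was 25.3 CPM in replicate 5. Its log2 fold change was 0.16 (SE 0.47, adjusted p = 0.967) with replicate 5 and -1.18 (SE 0.22, adjusted p = 0.0490) without it. The killer receptor gene Klrk1 stood at 41.2 CPM in replicate 5 against 4.98 to 9.58 in the other drug libraries and 7.16 to 9.35 with vehicle, and the interferon-induced sensor gene Zbp1 at 62.8 CPM against 6.42 to 7.51 and 6.26 to 13.3.

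**Figure D4:**
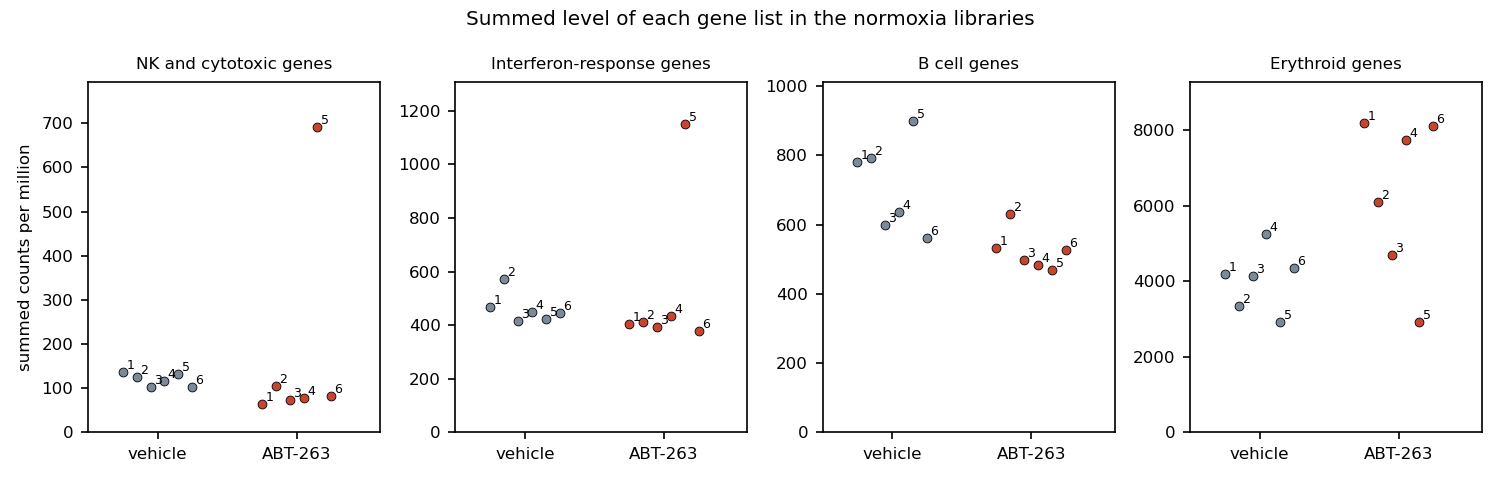
Summed CPM (vertical axis) of 4 gene lists in each normoxia library, with the replicate number beside each point. Drug replicate 5 stands at 690.8 CPM for natural killer genes and 1151 for interferon-response genes, above every other library, and at 2925 CPM is the lowest for erythroid genes.

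The targets of the drug and the wider cell death pathway showed no call by edgeR, beside 0.0413% of all genes called. At that share a list of this length is likely to hold none. Bcl2 ran from 16.1 to 20.8 CPM with vehicle and from 16.2 to 19.2 with the drug (log2 fold change -0.11, SE 0.08). Bcl2l1, which encodes BCL-XL, ran from 77.2 to 93.9 CPM and from 73.6 to 144.9 (0.21, SE 0.14), with drug replicates 4 and 5 above all vehicle libraries. Bcl2l2, which encodes BCL-W, had a log2 fold change of -0.16 (SE 0.09). Of the 24 tested members of the BCL-2 and caspase list, 0 were higher and 1 lower at an unadjusted p under 0.05. Over all genes the shares were 2.89% and 3.93%. The lower member was the initiator caspase gene Casp9 (-0.21, SE 0.09, adjusted p = 0.643), and the list's median was -0.05. Bcl2l10 and Hrk were below the filter.

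Senescence markers also showed no call by edgeR, again beside 0.0413% of all genes called. Cdkn2a, which encodes the senescence marker p16, was near the floor of detection at 0.126 to 0.951 CPM with vehicle and 0.443 to 1.51 with the drug (log2 fold change 0.37, SE 0.38, adjusted p = 0.895), and its log2 fold change was 0.13 without drug replicate 5. Cdkn1a, which encodes the cell cycle inhibitor p21, ran from 40.1 to 66.0 CPM and from 38.9 to 101.0 (0.27, SE 0.23, adjusted p = 0.873), with a log2 fold change of 0.090 without drug replicate 4. Its groups overlapped, with drug replicates 4 and 5 again the highest. Beside 2.89% higher and 3.93% lower over all genes, 0 of 23 tested senescence genes were higher and 1 was lower at an unadjusted p under 0.05. That gene was the matrix metalloproteinase Mmp3, at 31.9 to 51.4 CPM with vehicle and 19.6 to 34.8 with the drug (-0.62, SE 0.13, adjusted p = 0.114), and it was called lower by DESeq2 (adjusted p 0.0195) and by edgeR when drug replicate 6 was left out. Cxcl2 was below the filter.

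Several genes outside these groups were among the uncalled lower genes with the smallest p, as were Scd1, Mmp3 and Npas2 described above. Flrt3, an adhesion protein gene that overlaps Macrod2 on the other strand, ran from 29.8 to 38.5 CPM with vehicle and from 22.0 to 27.6 with the drug, without overlap (-0.40, SE 0.08, adjusted p = 0.0521). Spry1, a feedback inhibitor of growth factor signalling, ran from 70.7 to 91.0 CPM and from 56.6 to 70.4, also separate (-0.37, SE 0.08, adjusted p = 0.144). The proline synthesis gene Pycr1 (-0.75, SE 0.18), the collagen gene Col12a1 (-0.40, SE 0.09), the magnesium transporter Nipal1 (-0.49, SE 0.12), the matrix protein gene Spon2 (-1.09, SE 0.24) and the endothelial gene Myct1 (-0.38, SE 0.09) had adjusted p from 0.110 to 0.202. On the higher side, Herpud1, a component of the degradation of misfolded proteins in the endoplasmic reticulum, ran from 149.0 to 206.2 CPM and from 187.8 to 323.4 (0.53, SE 0.11, adjusted p = 0.0883). Tex11, a meiosis gene, had a log2 fold change of 0.73 (SE 0.17, adjusted p = 0.180).

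The same drug was given in hypoxia to other mice, and those libraries are separate from the normoxia ones. No gene passed there (edgeR, smallest adjusted p 0.226; 543 genes, or 3.21%, at an unadjusted p under 0.05, 1.66% higher and 1.55% lower; DESeq2 called 4), and none passed the test of the difference between oxygen levels (edgeR, smallest adjusted p 0.991; 625 genes, or 3.69%, at an unadjusted p under 0.05, with 2.56% more positive and 1.13% more negative in hypoxia; DESeq2 called 0). Of the 1154 genes with an unadjusted p under 0.05 in normoxia, 60.7% had the same sign in hypoxia, beside 50.2% of all genes. The share was 69.9% for the 489 higher genes, where 55% of all genes had a positive value in hypoxia. It was 53.8% for the 665 lower genes, where 45% of all genes had a negative value there. Of the 1154, 90 (7.8%) also had an unadjusted p under 0.05 in hypoxia with the same sign, beside 2.07% of all genes. Those 90 made up 16.6% of the 543 genes at that threshold in hypoxia.

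The gene groups had these values at the other oxygen level. Of the B cell genes, 20 of 22 had an unadjusted p under 0.05 in hypoxia, all lower, with a median log2 fold change of -0.71. Over all genes in hypoxia, 1.55% were lower and 1.66% higher at that threshold, and the median was 0.013. There 45% of all genes had a negative and 55% a positive value. Cd79a had -0.77 (SE 0.19), Ighd -0.99 (SE 0.20) and Cxcr5 -0.90 (SE 0.19) in hypoxia. The natural killer list, whose normoxia median turned on drug replicate 5, had a median of -0.67 in hypoxia with 12 of 12 members negative and 1 lower at that threshold. The platelet list had a median of 0.24 there, with 29 of 37 members positive, 7 higher at that threshold and 0 lower. The clock list had a median of 0.13 in hypoxia, with 3 of 19 members higher and 1 lower at that threshold. In normoxia these counts were 9 and 5, where 2.89% of all genes were higher and 3.93% lower. For 2 clock genes, both in the PAR-bZIP group, the difference between oxygen levels had an unadjusted p under 0.05, with the more negative value in hypoxia. That share over all genes was 1.13%. Arntl had -0.63 in hypoxia (SE 0.13, edgeR unadjusted p = 8.6e-05, adjusted p = 0.291). Lipid genes lay near 0 in hypoxia, with medians of -0.05 for cholesterol and 0.06 for fatty acid synthesis. Fasn had 0.09 (SE 0.09), and its difference between oxygen levels had an unadjusted p of 0.00223 and an adjusted p of 0.991, as did Mmp3, with 0.19 in hypoxia (unadjusted p of the difference 0.0002).

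**Figure D5:**
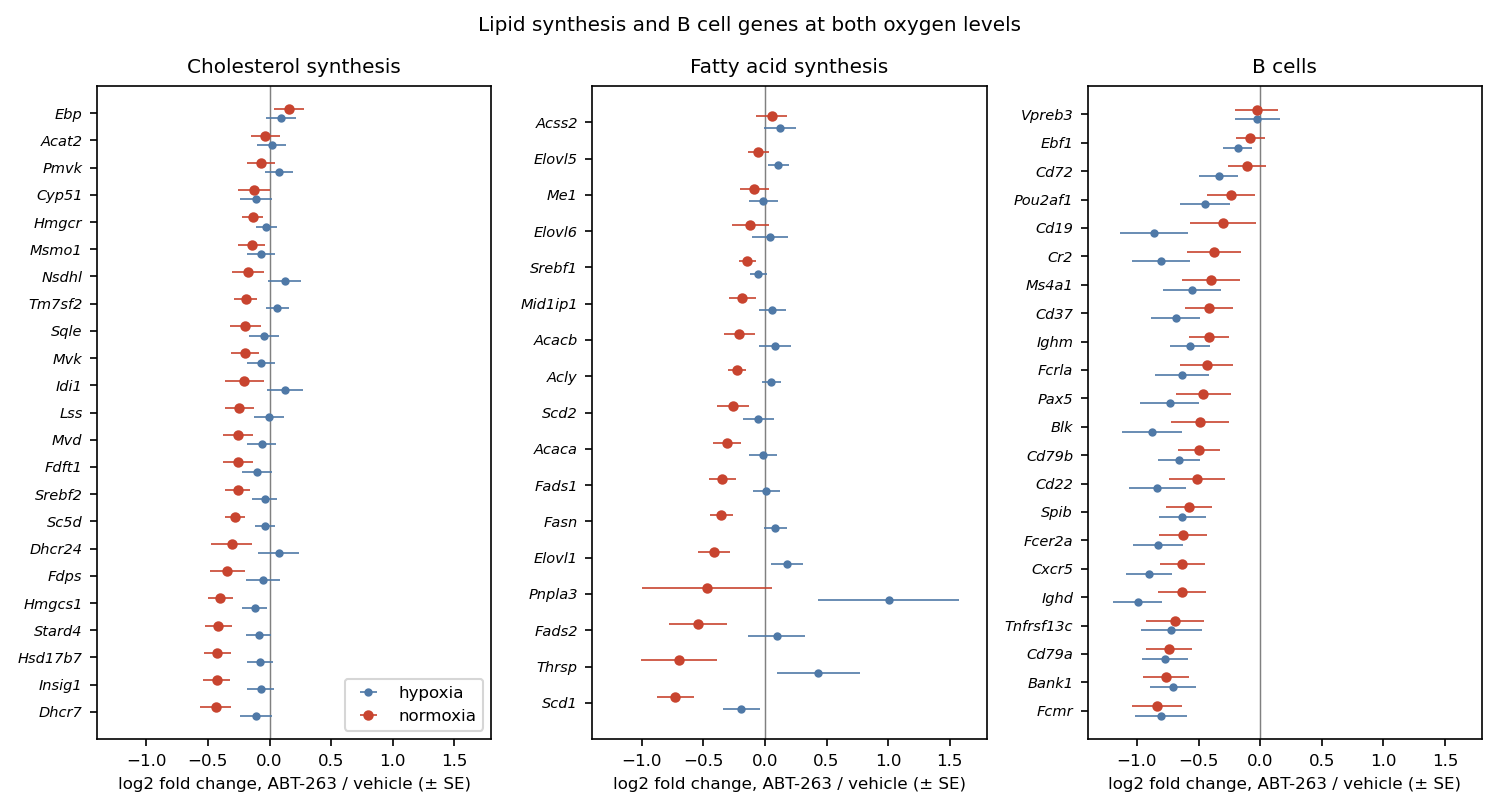
Log2 fold change of ABT-263 over vehicle (horizontal axis, with SE) for genes of 3 lists in normoxia (red) and hypoxia (blue). B cell genes lie below 0 at both oxygen levels, with medians of -0.47 and -0.71, while the lipid medians are -0.25 and -0.26 in normoxia and -0.05 and 0.06 in hypoxia.

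The 7 called genes had these group means at both oxygen levels. Gp1bb averaged 1.91 ± 0.845 CPM in normoxia with vehicle, 7.04 ± 2.30 with the drug, 7.98 ± 2.61 in hypoxia with vehicle and 10.5 ± 2.87 with both (SD, n = 6 each). Its drug effect in hypoxia was 0.40 (SE 0.25), and the difference between oxygen levels had an unadjusted p of 0.000674 and an adjusted p of 0.991. Gp9 averaged 7.17 ± 1.14, 17.1 ± 5.24, 12.2 ± 3.48 and 17.5 ± 5.28 CPM in the same order. Dbp averaged 20.6 ± 6.62, 58.6 ± 23.6, 49.4 ± 11.0 and 73.8 ± 9.46 CPM, and Arntl 25.2 ± 3.42, 14.7 ± 3.25, 11.7 ± 1.35 and 7.54 ± 1.21 CPM. Tef averaged 146 ± 27.8, 248 ± 44.4, 202 ± 33.5 and 238 ± 45.7 CPM. Nr1d1 averaged 62.5 ± 8.15, 101 ± 19.6, 60.1 ± 12.4 and 77.9 ± 7.23 CPM, and Mfsd2b 6.52 ± 0.669, 10.03 ± 0.996, 6.15 ± 1.05 and 7.22 ± 0.907 CPM. The hypoxia vehicle mean lay on the same side of the normoxia vehicle mean as the normoxia drug mean for Gp1bb, Gp9, Dbp, Tef and Arntl, and slightly on the other side for Nr1d1 and Mfsd2b, within the SD of both groups.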

How the data were processed

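RNA-seq of whole mouse lung was available as 1 table of estimated counts per gene for 24 libraries. The authors deposited these expected counts as made with Trimmomatic, STAR and RSEM on GRCm38, per the submitters' processing notes; versions, annotation, filters and how strand was handled are not stated there. Per the labels' protocols, RNA came from the RNeasy Plus Mini Kit and was sequenced as TruSeq Stranded mRNA libraries. Of the deposited values 91.8% were whole, and all were rounded. Every sample column could be assigned.

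Genes were kept by filterByExpr (minimum count 10), scaled by TMM and fitted over all 4 groups of 6 libraries (20 residual degrees of freedom) with edgeR 4.0.16's robust quasi-likelihood test in R 4.3.3. Log2 CPM values used a prior count of 2. P-values were Benjamini-Hochberg adjusted over 16935 genes, with a threshold of 0.05. Library properties were compared by exact two-sided permutation tests, whose smallest possible p was 0.00216. Alternatives used DESeq2 1.42.0, limma 3.58.1 (voom), RLE scaling, no filter, a non-robust fit, the 12 normoxia libraries alone and each library left out. Leaving out the 4 least correlated normoxia libraries was chosen after seeing the data. The fit was tested on simulated counts.

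The comparison and the gene lists were chosen with earlier results of these data known. Named genes were the called genes, the 10 higher and 10 lower uncalled genes with the smallest p and a mean of at least 1 CPM, all members of the platelet, clock, BCL-2, cholesterol, fatty acid synthesis and B cell lists, the 3 members with the smallest p of every other list, and Cdkn2a and Cdkn1a, of which the text describes a selection. Prf1 falls outside that rule. A few list members are not reported here by name. Replicate numbers follow the order of the sample labels, and what that order stands for is not given in the sources used here. Total counts of at least 12676648 per library limit precision for genes of few counts, such as Cdkn2a.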

Additional observations from a re-analysis of the deposited data

Results flagged for a closer look

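In 15 of 192 sets of 6 normoxia libraries examined, the highest or lowest library stood far from the others of its group (Dixon's criterion). Chance flags about 1 in 20 such sets, but the count cannot be set against that rate. Related genes and lists repeat each other, and some genes, such as Prf1, were picked after their values were seen. Drug replicate 5 was the extreme library in 8 of the 15. It had 357.7 CPM of Gzma (next drug library 42.7), 25.3 CPM of Prf1 (3.26), 41.2 CPM of Klrk1 (9.58) and 62.8 CPM of Zbp1 (7.51). Its summed levels were 690.8 CPM for natural killer genes (105.6), 274.5 CPM for T cell genes (162.2), 362.8 CPM for neutrophil genes (240.8) and 1151 CPM for interferon-response genes (433.3).

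Drug replicate 4 was highest in its group for the endothelial genes Kdr, at 221.1 CPM (next 183.8), and Vwf, at 325.6 CPM (254.1). Drug replicate 2 was highest for the summed adipose markers, at 339.4 CPM (137.1). In the vehicle group, replicate 1 was highest for Casp9, at 27.9 CPM (23.1) and for the summed platelet list, at 1147 CPM (1016). Vehicle replicate 2 was highest for the interferon-response list, at 571.4 CPM (468.4), and vehicle replicate 5 lowest for alveolar type 2 markers, at 30510 CPM (37960).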

How the results depend on the processing

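The 7 called genes kept their direction in every fit run, but their number depended on the fit. DESeq2 called 30 genes in normoxia and 4 in hypoxia. The fit of the 12 normoxia libraries alone and the fit without the 4 libraries that stood apart each called 0 in normoxia, with 1623 and 708 genes at an unadjusted p under 0.05. Leaving out 1 library gave 1 to 13 calls in normoxia and 0 to 1 in hypoxia. Below 5 calls were left without vehicle replicate 1 (4), 2 (3), 3 (4) or 4 (1), drug replicate 1 (2), 3 (4) or 4 (1), or hypoxia vehicle replicate 3 (4), and 13 without drug replicate 2; the cause was not tested. limma-voom called 6, and RLE scaling, the non-robust fit and the unfiltered fit 7 each, the last with Scd1 and Ighv3-6 in place of Dbp and Mfsd2b. The 38 gene values that gained and the 67 that lost a call are counted over the genes described in the text and all settings.

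Without the 4 libraries the platelet median was 0.25. The natural killer median ran from -0.62 to 0.58 with 1 library left out and was -0.49 without the 4. The haemoglobin difference ran from 0.171 to 0.283 percentage points, and passed without drug replicate 5 (0.283). Signs turned without the 4 libraries for Bcl2l1 (-0.070), Cdkn1a (-0.18), Gzma (-0.53), Klrk1 (-0.28), Prf1 (-1.13), Zbp1 (-0.21) and Vwf (0.024). limma-voom gave Gzma -0.047, Prf1 -0.58 and Vwf 0.0015, DESeq2 gave Rora 0.0037 and Vwf 0.0049, and RLE scaling gave Rora 0.0049 and Vwf 0.0055. With 1 library left out, Gzma ran from -0.63 to 1.05, Klrk1 from -0.31 to 0.74, Prf1 from -1.18 to 0.35, Zbp1 from -0.41 to 1.01, Rora from -0.053 to 0.032 and Vwf from -0.10 to 0.069. No paired analysis was possible because the labels give the groups no shared replicate numbers.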

Other observations

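Genes of cell division were higher under ABT-263 in normoxia without a call. Of 35 tested, 13 were higher at an unadjusted p under 0.05 and 0 lower, with a median log2 fold change of 0.38, beside 0.0059 over all genes. Over all genes, 2.89% were higher and 3.93% lower at that threshold. The mitosis genes held 12 of the 13 and all 24 were positive (median 0.49), while the 11 DNA replication genes had a median of 0.07. Birc5, which encodes the mitotic regulator survivin, ran from 3.22 to 5.87 CPM with vehicle and from 4.13 to 11.5 with the drug (0.65, SE 0.23, edgeR adjusted p = 0.494). Ttk, a spindle checkpoint kinase (0.83, SE 0.29, adjusted p = 0.479), and Cenpf, a kinetochore protein gene (0.71, SE 0.26, adjusted p = 0.519), also had overlapping groups. The count of higher genes was 5 without vehicle replicate 4, 4 without vehicle replicate 5, and 5 without drug replicate 5 or 6. It was 16 without vehicle replicate 1 or 2, 18 without drug replicate 3, and 15 without drug replicate 4. Without the 4 libraries that stood apart it was 15, and in the remaining leave-out fits of normoxia libraries it lay between 10 and 13. In hypoxia the list's median was 0.15, with 30 of 35 members positive and 0 at an unadjusted p under 0.05.

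General capillary and matrix genes had mostly negative values. All 9 general capillary genes were negative, 3 of them at an unadjusted p under 0.05, with a median log2 fold change of -0.18 in normoxia and 0.09 in hypoxia. Over all genes in normoxia, 48.3% were negative and 3.93% were lower at that threshold. Ptprb, a phosphatase of endothelial junctions, ran from 396 to 552 CPM with vehicle and from 315 to 404 with the drug (-0.39, SE 0.12, edgeR adjusted p = 0.346). Of the aerocyte (alveolar capillary) genes 4 were positive and 5 negative (median -0.07), and of the lymphatic endothelial genes 3 and 3 (median -0.04). The aerocyte gene with the smallest p was Kdr, the main receptor for vascular endothelial growth factor, which ran from 209 to 264 CPM and from 164 to 221 (-0.33, SE 0.09, adjusted p = 0.233). Of 16 fibroblast and matrix genes 14 were negative, 4 of them at that threshold, with medians of -0.16 in normoxia and 0.16 in hypoxia. The peptide hormone gene Adm ran from 4.64 to 14.2 CPM and from 3.52 to 6.80 (-0.88, SE 0.25, adjusted p = 0.300).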
